A study of Rattus norvegicus with 12 samples.

Results

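Kidney gene expression of obese Zucker rats fed rosiglitazone was compared with that of obese Zucker rats fed the control diet. The comparison rests on the 3 arrays whose titles give obese rats on rosiglitazone and the 3 whose titles give obese rats on control diet, which are 6 of the 12 arrays in the series. All rats were male, and the obese and lean rats are both Zucker rats, a strain in which the obese animals carry a defective leptin receptor. The labels call the animals a diabetes model. Control rats ate ground chow, and treated rats ate that chow with 3 mg of rosiglitazone per kg of body weight (3 mg/kg), over 12 weeks. The other 6 arrays, from 3 lean rats on each diet, entered the same statistical model, and their values are set beside those of the obese rats where a result turns on them. The sources used here do not give the age of the rats or the part of the kidney that was taken.

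Rosiglitazone is a thiazolidinedione, a class of insulin-sensitising drugs that bind and activate the nuclear receptor PPARgamma. PPARgamma pairs with a retinoid X receptor on DNA and turns on genes of fat cell formation and of fatty acid uptake, binding and storage. In the kidney it is known from the collecting duct, the medulla and blood vessels, and drugs of this class are known for fluid retention. The RNA came from kidney tissue of mixed cell types. Fewer cells of a type and less RNA per cell therefore cannot be told apart in any value below.

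Signals are the deposited MAS5 intensities, on a linear scale with arbitrary units. The obese arrays had median signals from 208.2 to 230.8, and each correlated with the others of its group at a median of 0.968 to 0.977. Bacterial control probe sets should find no rat RNA. Their highest signals were 39.9, 39.1 and 51.5 on obese controls 1 to 3 and 22.9, 23 and 22.8 on the drug arrays. The drug arrays thus lay lower, and whether that bears on dim genes was not tested. A signal in the range from 22.8 to 51.5 is called background here. Markers of kidney were bright on all 6 arrays. Aqp2, which encodes the vasopressin-regulated water channel, had 13160, 10650 and 11930 on control diet and 13230, 12200 and 11530 on the drug, and Slc12a1, the salt transporter of the thick ascending limb, had 7172, 6810 and 7142 against 6610, 6146 and 7309. The cre spike-in, a control RNA added at hybridization, parted the arrays. It was 17421 on obese control 1 and 12624 to 14363 on the other 5 obese arrays, so all 3 drug arrays and 2 of the 3 control arrays lay in its lower class.

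Of 18625 probe sets tested, 13 differed between drug and control in obese rats at an adjusted p under 0.05 (limma, Benjamini-Hochberg), which is 0.0698%. Of these, 9 were higher (0.0483%) and 4 lower (0.0215%) on the drug. The higher ones were Fabp4, Rbp7, Slc22a13, Fasn, Nkd2, Tro, Slc7a12, Fabp5 and Ace. The lower ones were Spns2, Cotl1 and 2 probe sets with no gene name here. All 13 had every drug array on one side of every control array, a pattern that 11.9% of all tested probe sets had (1036 with the drug above, 1181 with the drug below). A further 13 lay between adjusted p values of 0.05 and 0.1. An unadjusted p under 0.05 was found for 917 of the 18625, of which 446 were higher and 471 lower. That is no more than the share of 0.05 that such a cut would pass if no probe set changed. The same holds for the other counts at an unadjusted p given below. The median log2 change of all tested probe sets was 0.00. Precision is limited by the 3 arrays in each group.

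**Figure D1:**
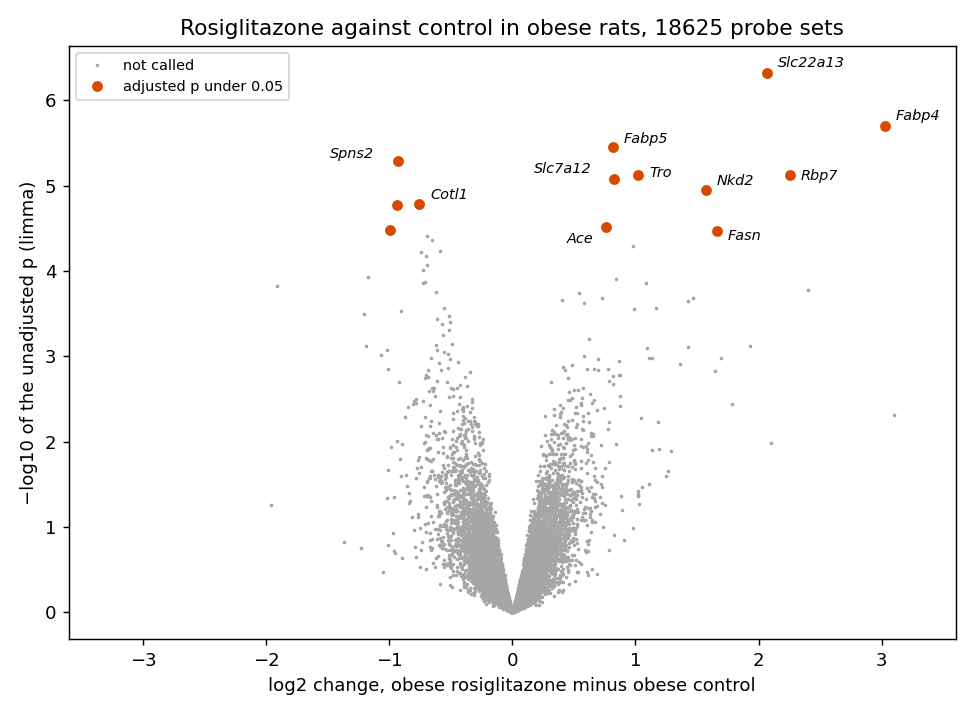
Log2 change between obese rats on rosiglitazone and on control diet (x axis) against −log10 of the unadjusted limma p (y axis), 1 point for each of 18625 probe sets. Orange points are the 13 called probe sets, and the 11 with a gene name are labelled. Fabp4 lies farthest to the right of the called genes at 3.03, and Slc22a13 has the smallest p.

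How far the calls rest on single arrays was checked by leaving out each obese array in turn. Without obese rosiglitazone 1 there were 0 calls at an adjusted p under 0.05 (limma; 719 at an unadjusted p under 0.05). The count was 10 without obese rosiglitazone 2, 1 without obese rosiglitazone 3, 4 without obese control 1, 3 without obese control 2 and 2 without obese control 3. Slc22a13 passed with 5 of the 6 arrays left out, and its adjusted p without obese rosiglitazone 1 was 0.0665 (log2 change 2.12). Fabp4, Rbp7 and Fabp5 each passed with 2 arrays left out, and Nkd2, Tro and Cotl1 with 1, each time obese rosiglitazone 2. Fasn, Slc7a12, Ace and Spns2 missed the threshold whichever of the 6 arrays was left out. No called gene turned its direction in these fits, in which the smallest change of a called gene was that of Cotl1 at −0.65. Within the lower class of the spike-in, which keeps obese controls 2 and 3, 18 probe sets were called, 15 higher and 3 lower, and 6 of the 13 were among them. With the spike-in class as a term in the fit, 34 were called, 25 higher and 9 lower, and all 13 were among them.

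**Figure D2:**
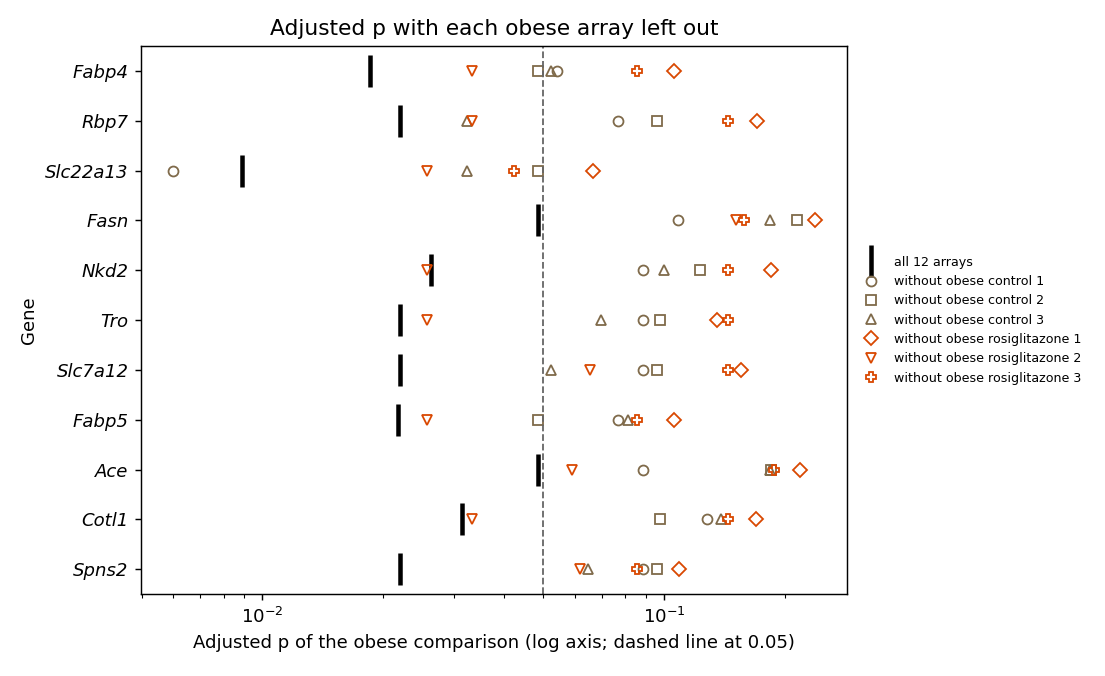
Adjusted p of the obese comparison (x axis, log scale, dashed line at 0.05) for the 11 called genes with a name (y axis). Black bars are the fit with all 12 arrays, and open symbols are fits without 1 obese array. Only Slc22a13 has 5 of its 6 symbols left of the line, and the fits without obese rosiglitazone 1 lie right of it for every gene.

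Fabp4, Rbp7 and Fabp5 carry fatty acids or retinol inside cells and are known targets of PPARgamma. Fabp4, which binds fatty acids in fat cells and in capillary endothelium, had signals of 216.2, 501.9 and 491.6 in obese controls and 4111, 2862 and 2776 on the drug. Each treated rat was several times above each control, and the log2 change was 3.03 (SE 0.37, adjusted p = 0.0185). The ratio of the mean signals, without the offset, was 8.06. In lean rats Fabp4 had 1068, 1065 and 2408 on control diet and 4343, 7256 and 3864 on the drug, a log2 change of 1.81 (SE 0.37) with an adjusted p of 0.293. The groups also did not overlap in lean rats, and the difference between the body types, 1.22, did not pass (adjusted p = 0.992).

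Rbp7, a cellular retinol-binding protein of fat and of endothelium, had 45.13, 16.49 and 66.71 in obese controls and 325.9, 184.6 and 245.9 on the drug. The control signals lay at or near background, so the log2 change of 2.26 (SE 0.33, adjusted p = 0.022) depends on the offset added before the logarithm. It was 1.57 with an offset of 64 in place of 16 (adjusted p = 0.0237). In lean rats Rbp7 had 91.58, 119.6 and 98.62 on control diet and 565.8, 449 and 308.3 on the drug, with a log2 change of 1.90 that missed the threshold (adjusted p = 0.0845). Fabp5, the epidermal fatty acid-binding protein, had 2255, 2722 and 2433 in obese controls and 5104, 3864 and 4185 on the drug. Its log2 change was 0.82 (SE 0.11, adjusted p = 0.0217), with the treated obese rats at the level of lean controls, which had 4208, 4207 and 4107. The lean change of Fabp5 was 0.10 (SE 0.11), with overlapping groups.

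Cd36, the fatty acid transporter and another PPARgamma target, had 300.4, 419.3 and 423.9 in obese controls and 746.1, 940.5 and 776.4 on the drug, which did not overlap. Its log2 change of 1.08 (SE 0.21) did not pass (adjusted p = 0.0997), and in lean rats it was 1.32 (adjusted p = 0.0635). With only the 6 obese arrays Cd36 passed (adjusted p = 0.0391). Ucp1, the uncoupling protein of brown fat, was at background in obese controls at 32.83, 6.868 and 4.108 and had 79.09, 132.2 and 219.8 on the drug. Its log2 change was 2.40 (adjusted p = 0.112) and ran from 1.36 with an offset of 64 to 3.59 with an offset of 1. In the lower spike-in class it passed (log2 change 2.80, adjusted p = 0.0398). The receptor gene itself, Pparg, had 239.1, 148.8 and 220.3 in controls and 258.1, 226.6 and 257.3 on the drug, and these ranges overlapped. In the list of PPARgamma targets, 34 genes were measured. Of these, 3 (Fabp4, Rbp7 and Fabp5) were called higher and 0 lower, beside 9 and 2 of all 10524 genes tested. Means on the drug were higher for 26 and lower for 8, beside 5178 and 5346 of all genes tested. The median log2 change over these 34 was 0.21 in obese and 0.19 in lean rats, beside 0.00 over the 10524 genes tested in obese rats. In the list of PPAR receptors and coregulators, 0 of 16 passed in either direction, with log2 changes from −0.28 to 0.29. Angptl4 and Pdk4, targets of the PPAR family in many tissues, had log2 changes of 0.31 and −0.15 with overlapping groups.

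Fat cells express several of these genes, and the values of fat cell markers stand beside them. The lists share members. Fabp4 and Cd36 are both white fat markers and PPARgamma targets here, and Thrsp is both a white fat marker and a fatty acid synthesis gene. The sum without Fabp4 below still holds Cd36 and Thrsp. Of 22 measured white fat markers, Fabp4 alone was called, and 18 had higher and 4 lower means on the drug. Their summed signal was 17390 to 18591 in obese controls and 23783 to 24428 on the drug, and without Fabp4 it was 17174 to 18100 against 20317 to 21506. Adipoq, which encodes adiponectin, had 409.8, 447.7 and 643.5 in obese controls and 583.1, 535.9 and 639.5 on the drug, which overlapped, and Lep, the leptin gene, was too dim for the filter. Lpl, lipoprotein lipase, had 2821, 3534 and 3818 against 4316, 4671 and 3887 (log2 change 0.35, adjusted p = 0.999). Brown fat markers summed to 18949 to 19288 in controls and 17720 to 19827 on the drug, and 0 of 12 passed. Means were higher for 8 and lower for 4. Ucp1, Cidea and Cox8b make up little of that sum, with means of 14.6, 286.7 and 29.31 in obese controls. Cidea and Cox8b had log2 changes of 0.53 and 0.62 with overlapping groups. In lean rats these were 1.47 and 1.93 without overlap, and neither passed. Cox8b had 31.16, 32.03 and 24.74 in obese controls and 31.57, 49.27 and 90.81 on the drug. It was thus at background on the obese arrays except obese rosiglitazone 3. In lean rats the median over the white fat markers was 0.36, against 0.24 in obese rats. The part of fat tissue in these results was not tested.

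**Figure D3:**
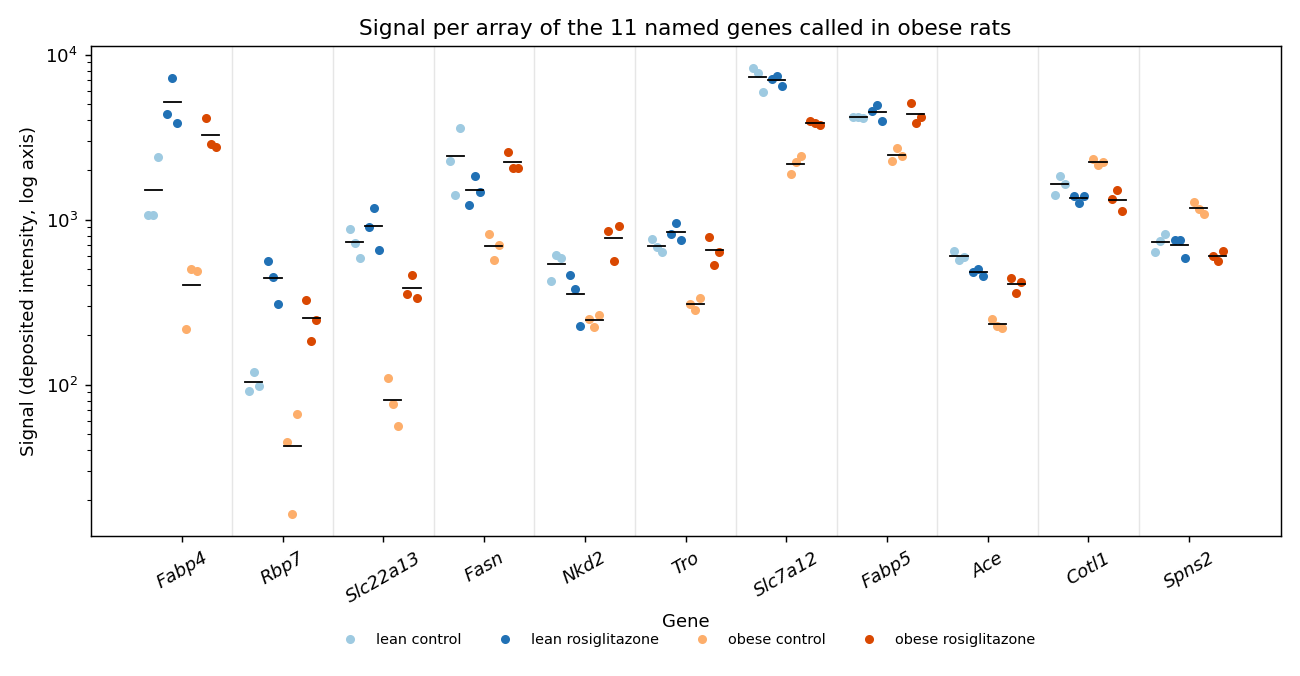
Signal of each array (y axis, deposited intensity, log scale) for the 11 named genes called in obese rats (x axis), with points for the 3 arrays of each group and bars for group means. The treated obese arrays lie apart from the obese controls for every gene. For Fabp4 and Rbp7 the treated lean arrays also lie above the lean controls.

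Genes of fatty acid synthesis were the other lipid group with a called member. Fasn, fatty acid synthase, had 822, 572.8 and 697.9 in obese controls and 2577, 2067 and 2055 on the drug. The treated rats did not overlap the controls, and the log2 change was 1.66 (SE 0.27, adjusted p = 0.0486). A second, dimmer Fasn probe set gave 0.58 (SE 0.29, adjusted p = 0.999), so the gene's probe sets differed in size. In lean rats Fasn had 2266, 1416 and 3578 on control diet and 1230, 1829 and 1470 on the drug, a log2 change of −0.59. The difference between body types, 2.26 (SE 0.38), did not pass (adjusted p = 0.235).

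Scd, the stearoyl-CoA desaturase of liver and fat, had 115.4, 166.3 and 136.4 in obese controls and 1184, 1252 and 1492 on the drug. The groups lay far apart, with a log2 change of 3.10, yet the fit shares 1 spread over all groups and gave an SE of 0.88 and an adjusted p of 0.572. The lean controls spread over 1383, 149.5 and 4063. In a fit of only the 6 obese arrays the SE was 0.16 and Scd passed (adjusted p = 6.2e-05), as it did in the lower spike-in class (adjusted p = 0.000386). Scd2, a related desaturase, had 1890, 2365 and 1836 against 3777, 4781 and 3533, and narrowly missed the threshold (log2 change 0.98, SE 0.17, adjusted p = 0.0592). Thrsp, a regulator of fat synthesis, had 202.7, 202.6 and 284 against 670.4, 796 and 865.2 (log2 change 1.70, adjusted p = 0.309). Srebf1, a transcription factor of the same pathway, had 943, 1084 and 870.5 against 1531, 1483 and 1207 (log2 change 0.53, adjusted p = 0.439). The treated rats were above the controls for all of these genes without overlap. Thrsp and Scd2 also passed with only the 6 obese arrays, at adjusted p values of 0.00549 and 0.0391. Over the 22 measured genes of the list, 1 was called higher and 0 lower, and 16 had higher and 6 lower means. The median log2 change was 0.19 in obese and 0.06 in lean rats.

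Fatty acid oxidation genes, best known as targets of the related receptor PPARalpha, had 0 of 37 called. Of these, 27 had lower and 10 higher means on the drug, with a median log2 change of −0.10 in obese and 0.07 in lean rats. Slc22a5, the carnitine transporter, had 1671, 2060 and 1873 against 1176, 1477 and 1603, and Slc25a20, the mitochondrial carnitine carrier, had 1011, 1000 and 1048 against 704, 860.8 and 816.2. In both genes the treated rats lay below the controls, but neither passed (log2 changes −0.40 and −0.36, adjusted p = 0.607 and 0.611).

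Slc22a13, an organic anion transporter of the proximal tubule that carries urate and nicotinate, had the smallest p of the comparison. Its signals were 109.3, 76.31 and 55.93 in obese controls and 354.4, 459.9 and 335.1 on the drug. The log2 change was 2.07 (SE 0.24, adjusted p = 0.00889), and the ratio of the mean signals, without the offset, was 4.76. Lean rats had 875, 724.2 and 584.2 on control diet and 899.7, 1172 and 659.7 on the drug, which overlapped. The treated obese rats thus stood between the obese and the lean controls. The lean change was 0.30, and the difference between body types, 1.77 (SE 0.34), did not pass (adjusted p = 0.344). Slc7a12, an amino acid transporter of the kidney, had 1890, 2225 and 2436 in obese controls and 3951, 3860 and 3766 on the drug. Its log2 change was 0.82 (SE 0.12, adjusted p = 0.022), and lean controls were higher than either obese group at 8277, 7757 and 5948. In lean rats the change was −0.06, and the difference of 0.88 did not pass (adjusted p = 0.344).

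RefSeq promoter windows, from 250 bases before to 50 after a gene's start in assembly GRCr8, are shown for Slc22a13, the called gene of smallest p, and for Rbp7, a PPARgamma target with separate groups in both body types. The PPAR element is a direct repeat of AGGTCA with 1 base between the copies, and capitals mark each AGGTCA found on either strand. The Slc22a13 window lies at chr8:127811701-127812000 on the reverse strand and holds 1 copy near its end. The Rbp7 window lies at chr5:165177350-165177649 on the reverse strand and holds 0 copies.
Slc22a13: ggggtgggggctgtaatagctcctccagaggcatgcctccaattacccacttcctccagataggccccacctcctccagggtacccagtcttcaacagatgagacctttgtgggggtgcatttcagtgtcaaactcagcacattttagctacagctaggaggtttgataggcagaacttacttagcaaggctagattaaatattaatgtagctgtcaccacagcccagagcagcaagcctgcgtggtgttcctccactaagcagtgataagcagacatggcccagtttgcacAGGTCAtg
Rbp7: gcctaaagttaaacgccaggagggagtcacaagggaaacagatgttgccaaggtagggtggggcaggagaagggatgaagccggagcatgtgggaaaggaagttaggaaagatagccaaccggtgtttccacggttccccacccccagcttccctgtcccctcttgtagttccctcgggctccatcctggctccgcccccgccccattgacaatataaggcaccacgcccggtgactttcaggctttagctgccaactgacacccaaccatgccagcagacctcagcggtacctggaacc
Among called genes, Nkd2, Slc7a12, Rbp7, Slc22a13, Ace and Cotl1 had a window, and 0 of them held the direct repeat on either strand, with the fourth base as given or free (AGGNCA). Of the 9796 windows of genes tested, 0.0204% held the repeat as given and 0.265% with the free base, while 12.5% held AGGTCA at least once. These are matches of letters in this window and say nothing of binding elsewhere.

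Among 33 measured proximal tubule genes, Slc22a13 alone was called, and 24 had lower and 9 higher means on the drug, with a median log2 change of −0.09 in obese and 0.01 in lean rats. Slc13a1, the sulfate transporter of the brush border, had 1134, 937 and 715.6 in obese controls and 258.7, 496.1 and 449.3 on the drug (log2 change −1.20, adjusted p = 0.149), and a second probe set gave −1.18 (adjusted p = 0.0997). Slc26a1, a sulfate and oxalate exchanger, had 1939, 2206 and 2310 against 1242, 1675 and 1493 (log2 change −0.55, adjusted p = 0.298). Slc22a6, the organic anion transporter OAT1, had 1745, 2265 and 2027 against 1172, 1613 and 1409 (log2 change −0.52, adjusted p = 0.306). In these transporters the treated rats lay below the controls without overlap, but none passed. Slc17a1, a phosphate and urate transporter of the same segment, came closer at −0.69 (SE 0.13, adjusted p = 0.0786). The summed signal of the 33 genes was 158045.8 to 178239 in controls and 153846.9 to 156934.2 on the drug.

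Ace, angiotensin-converting enzyme, rose in obese rats, with 250.6, 226.1 and 221.4 in controls and 440.9, 361.3 and 420 on the drug. The log2 change was 0.77 (SE 0.13, adjusted p = 0.0486). Ace missed the threshold in 14 of 17 alternative fits, among them that of only the 6 obese arrays. Lean rats had 648.2, 572.2 and 594.3 on control diet and 479, 501.7 and 456.2 on the drug, with the treated rats below the controls and a change of −0.33 that did not pass. The difference between body types was 1.09 (SE 0.18) and did not pass either (adjusted p = 0.173). Agt, angiotensinogen, the precursor that Ace's substrate is cut from, had 1212, 1101 and 1026 in obese controls and 804, 642.2 and 670.2 on the drug. Its log2 change of −0.65 (SE 0.11) just missed the threshold (adjusted p = 0.0538). The lean value for Agt was 0.14. In the renin angiotensin list, 1 of 11 measured genes was called higher and 0 lower, and 5 had higher and 6 lower means.

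The other called genes with a name were Nkd2, Tro, Spns2 and Cotl1. Nkd2, an inhibitor of Wnt signalling, had 250, 222.6 and 265.7 in obese controls and 859, 565.4 and 910.3 on the drug and rose by a log2 change of 1.57 (SE 0.24, adjusted p = 0.0263). In lean rats it had 427.4, 607 and 586 against 460, 380.8 and 227.6, a change of −0.62, and the difference of 2.19 (SE 0.34) did not pass (adjusted p = 0.124). The lean groups overlapped. Tro, which encodes the adhesion protein trophinin, had 306.8, 283.5 and 336.1 in obese controls and 781.3, 529.7 and 641.6 on the drug and rose by a log2 change of 1.02 (SE 0.15, adjusted p = 0.022). Lean controls had 761.2, 680.4 and 638.3, so the treated obese rats overlapped them.

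Spns2, a transporter that exports sphingosine-1-phosphate from cells, fell from 1273, 1158 and 1077 to 606.9, 562.3 and 650.5 (log2 change −0.93, SE 0.13, adjusted p = 0.022). A second probe set gave −0.90 (adjusted p = 0.14), and in lean rats the change of the first was −0.07. Cotl1, an actin-binding protein of the cytoskeleton, fell from 2317, 2133 and 2226 to 1327, 1507 and 1123 (log2 change −0.76, SE 0.12, adjusted p = 0.0313), beside −0.26 in lean rats. The 2 unnamed probe sets, 1368191_a_at and 1397500_x_at, changed by −0.94 (adjusted p = 0.0313) and −0.99 (adjusted p = 0.0486). The first had 1159, 1652 and 1638 in controls and 645.1, 884.1 and 763 on the drug, and the second 1708, 1833 and 1872 against 938.4, 878.5 and 876.5. With only the 6 obese arrays the first did not pass.

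The obese controls differ from the lean controls in many of these genes, and since they are also the base of the drug comparison, the 2 differences share arrays and are given side by side. Obese controls minus lean controls gave −2.97 for Slc22a13, −1.85 for Fabp4, −1.73 for Slc7a12, −1.69 for Fasn, −1.32 for Ace, −1.13 for Tro, −1.12 for Rbp7, −1.07 for Nkd2 and −0.76 for Fabp5 on the log2 scale. For Spns2 and Cotl1 they gave 0.67 and 0.45. These values are not independent of the drug changes above.

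Further genes of smallest p that missed the threshold are given by their brightest probe set. Calml4, a calmodulin-like protein, had a log2 change of −0.69 (adjusted p = 0.0524), Igsf11, an adhesion protein, of −0.59 (adjusted p = 0.0617), and Ccng1, cyclin G1, of −0.70 (adjusted p = 0.0651). Smoc2, a matrix protein, had one of −0.72 (adjusted p = 0.0861), Apmap, a membrane protein known from fat cells, of −0.71 (adjusted p = 0.0997), Kif11, a kinesin of the mitotic spindle, of −0.73 (adjusted p = 0.0997), and Nat8b of −0.62 (adjusted p = 0.113). Poteml2 had the lowest change of these at −1.91 (SE 0.36, adjusted p = 0.102), from 1467, 2374 and 2073 to 354.1, 475.9 and 750.4. All of them had treated rats below controls without overlap, and with only the 6 obese arrays Ccng1, Poteml2 and Nat8b passed (adjusted p = 0.0391 each). Ctsl, cathepsin L, falls outside the naming rule and was chosen after its values were seen. Its brighter probe set gave −0.40 (adjusted p = 0.531) and its dimmer one −0.74 (adjusted p = 0.0617).

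**Figure D4:**
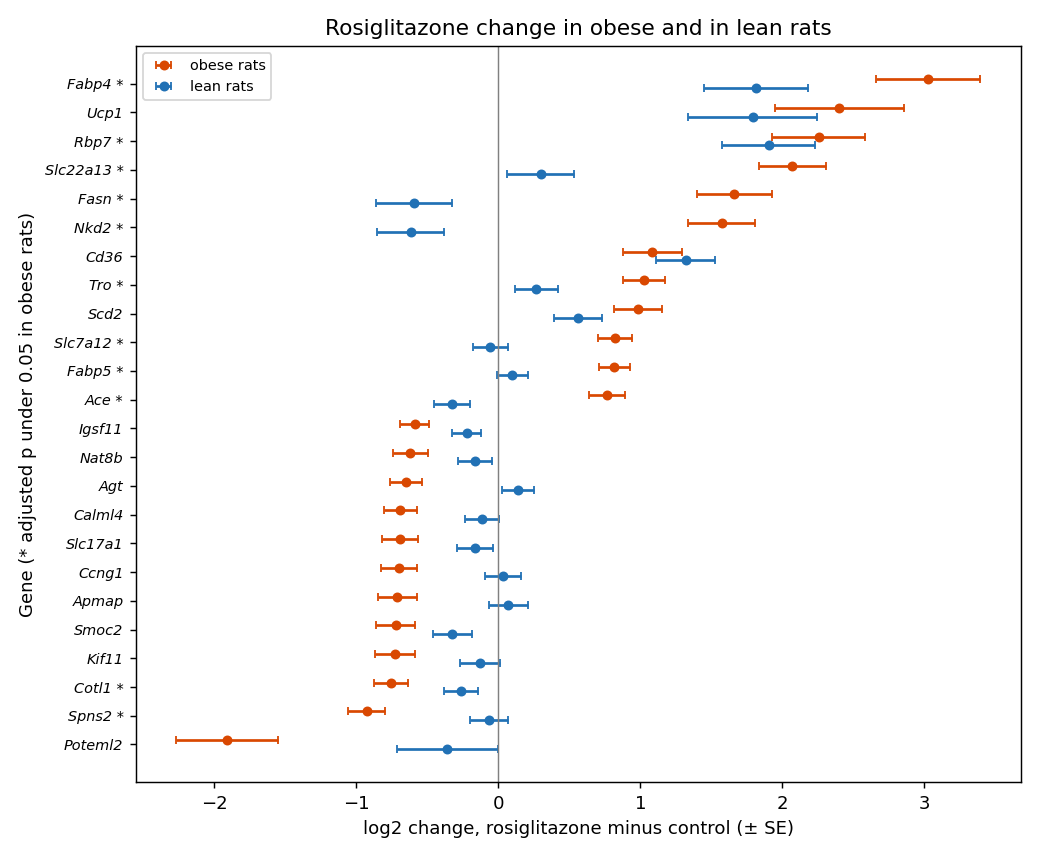
Log2 change between rosiglitazone and control (x axis, points with bars of ± SE) in obese and in lean rats for 24 genes (y axis), namely the 11 called in obese rats, marked with a star, and 13 that did not pass, taken by smallest p of their brightest probe set. Fabp4, Ucp1, Rbp7 and Cd36 lie well above 0 in both body types, while Fasn, Nkd2 and Ace lie on opposite sides of 0.

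The drug comparison in lean rats shares no array with that in obese rats. In lean rats 1 probe set was called (0.00537%), that of Inmt, an N-methyltransferase of indoles, with 893 at an unadjusted p under 0.05. Inmt had 1936, 2389 and 1747 in lean controls and 5189, 5403 and 5309 on the drug (log2 change 1.39, adjusted p = 6.5e-05). In obese rats it was high on both diets, at 6672, 5621 and 5694 against 6747, 7573 and 7049, a change of 0.25 (SE 0.11, adjusted p = 0.975). The test of the difference between body types called 0 probe sets (0%; limma, 802 at an unadjusted p under 0.05), and Inmt came closest at −1.14 (SE 0.15, adjusted p = 0.0546). No gene was therefore shown to respond differently in obese and lean rats. Of the 13 probe sets called in obese rats, 9 (69.2%) had the same sign in lean rats, beside 517 of 917 (56.4%) at an unadjusted p under 0.05 and 49.6% of all tested. Across all 18625 probe sets the changes in the 2 body types had a Pearson r of 0.04 and a Spearman rho of 0.00, where probe sets are not independent.

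Sodium and water handling, where this drug class is known to act, showed no called gene. Of 26 genes of distal sodium and potassium transport and 21 of water channels and vasopressin signalling, 0 passed in either direction, with medians of 0.02 and 0.04. Scnn1a, Scnn1b and Scnn1g, the subunits of the epithelial sodium channel ENaC, had log2 changes of 0.13, −0.03 and −0.25 with overlapping groups, and the sign for Scnn1b turned to 0.04 without obese rosiglitazone 1. The log2 change of Aqp2 was 0.05, and it was −0.03 without obese control 2 and 0.00 without obese rosiglitazone 1. Sgk1, a kinase that activates ENaC, had 5563, 4976 and 4728 in controls and 7117, 6505 and 6302 on the drug, a log2 change of 0.38 (SE 0.14, adjusted p = 0.806). Tsc22d3, which like Sgk1 is induced by corticosteroids, had 2684, 2415 and 2061 against 4049, 3499 and 3022 (log2 change 0.56, adjusted p = 0.962). Both had treated obese rats above obese controls, and neither passed. In lean rats the changes of Sgk1 and Tsc22d3 were −0.275 and −0.331, with overlapping groups. The differences between body types, 0.66 and 0.888, did not pass (adjusted p = 0.992 each). Slc12a3, the thiazide-sensitive transporter, had 4030, 5065 and 5141 against 3628, 4779 and 4313, which overlapped. In the thick ascending limb list 0 of 14 passed.

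Kidney damage and matrix genes had no called member. In the tubular injury list 0 of 26 passed, and Havcr1, the injury marker KIM-1, had 2592, 276.8 and 678.7 in obese controls and 232.8, 324.8 and 852.2 on the drug. Obese control 1 was the only high one, and the groups overlapped. In the fibrosis list 0 of 35 passed, with 15 higher and 20 lower means and a median of −0.06. Col1a1, a chain of type I collagen, had 562.5, 971.4 and 587.9 against 326.9, 437.7 and 421.1 (log2 change −0.78, adjusted p = 0.513), and a second probe set gave −0.53. Ccn1, a matrix protein, had 662.8, 486.3 and 325 against 276.9, 231.5 and 283 (log2 change −0.81, adjusted p = 0.517). Ccn2, connective tissue growth factor, lay the other way with 2977, 2829 and 2161 against 3653, 3443 and 3341 (log2 change 0.40, adjusted p = 0.668).

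Of 18 measured antigen presentation genes, 0 were called, and 13 had lower and 5 higher means. Treated rats lay below controls without overlap in 9 and above in 0. Over all 10524 genes tested, 768 (7.3%) lay below and 634 above. Other lists had such counts too. Of 33 proximal tubule genes 11 lay below and 3 above, of 37 fatty acid oxidation genes 9 and 0, and of 22 fatty acid synthesis genes 2 and 9. The median log2 change was −0.22 in obese and 0.01 in lean rats. Cd74, the invariant chain of MHC class II, had 5284, 4726 and 4405 in controls and 3977, 3887 and 3738 on the drug (log2 change −0.31, adjusted p = 0.669). Psmb9, an immunoproteasome subunit, had 506.7, 683.8 and 601.5 against 349.4, 365.8 and 371.1 (log2 change −0.69, adjusted p = 0.669), and RT1-Db1, a class II chain, had 2117, 2166 and 1802 against 1183, 1386 and 1251 (log2 change −0.66, adjusted p = 0.884). The summed signal of the list was 29920.7 to 33751.1 in controls and 25137.5 to 25907.3 on the drug. Lymphocyte markers, 9 in number, all had lower means, with summed signals of 1700 to 2288.2 against 1464 to 1885.3, and 0 passed. Whether immune cells in the tissue bear on the antigen presentation values was not tested. In the inflammation list 0 of 27 passed, and Ubd, an inflammation-induced ubiquitin-like protein, had 2444, 1170 and 1222 against 674.2, 823.7 and 741.4 (log2 change −1.01, adjusted p = 0.988).

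Endothelial markers had higher means on the drug in 19 of 21 genes, beside 5178 of all 10524 genes tested. Genes measured on the same arrays are not independent. The median was 0.27 in obese and 0.07 in lean rats, and 0 passed. Tek, the angiopoietin receptor, had 761.6, 1341 and 1148 against 1706, 1551 and 1437 (log2 change 0.56, adjusted p = 0.523), and Emcn, endomucin, had 1117, 2090 and 1664 against 2349, 2231 and 2219 (log2 change 0.52, adjusted p = 0.62). Obese control 1 was the lowest in both genes. The summed signal was 13993.7 on that array, 22002.4 and 18771.3 on the other controls and 21008.2 to 22867.4 on the drug, which overlapped. Fabp4 and Rbp7 are expressed by capillary endothelium too, and the part of endothelium in their change was not tested; their log2 changes were 3.03 and 2.26 beside the endothelial median of 0.27. Red blood cell genes, of which 3 were measured, summed to 7024.7 to 9702 in controls and 8880.8 to 14617.4 on the drug.

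Oxidative stress genes had 0 of 38 called. Mt2A, a metallothionein, had 11750, 10490 and 9845 against 6491, 6908 and 7513 (log2 change −0.61, SE 0.13, adjusted p = 0.161), and Mt1 had 227.1, 190.1 and 194.8 against 126, 104.1 and 59.8 (log2 change −1.01, adjusted p = 0.34). Cyba, the p22phox subunit of NADPH oxidase, had 875.2, 943.4 and 892.6 against 598.7, 657.8 and 638.1 (log2 change −0.51, adjusted p = 0.173), and Nox4, the oxidase of kidney tubules, had 430.5, 508.4 and 391 against 174.8, 338.4 and 302.8 (log2 change −0.71, adjusted p = 0.697). The treated rats lay below the controls in each of these genes, none of which passed, though Mt2A did with only the 6 obese arrays (adjusted p = 0.0391). The list as a whole had 18 higher and 20 lower means and a median of −0.02. Its log2 changes ran from −1.01 to 0.53. Treated rats lay above controls without overlap in 4 of its genes and below in 8, beside 634 and 768 of all 10524 genes tested.

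**Figure D5:**
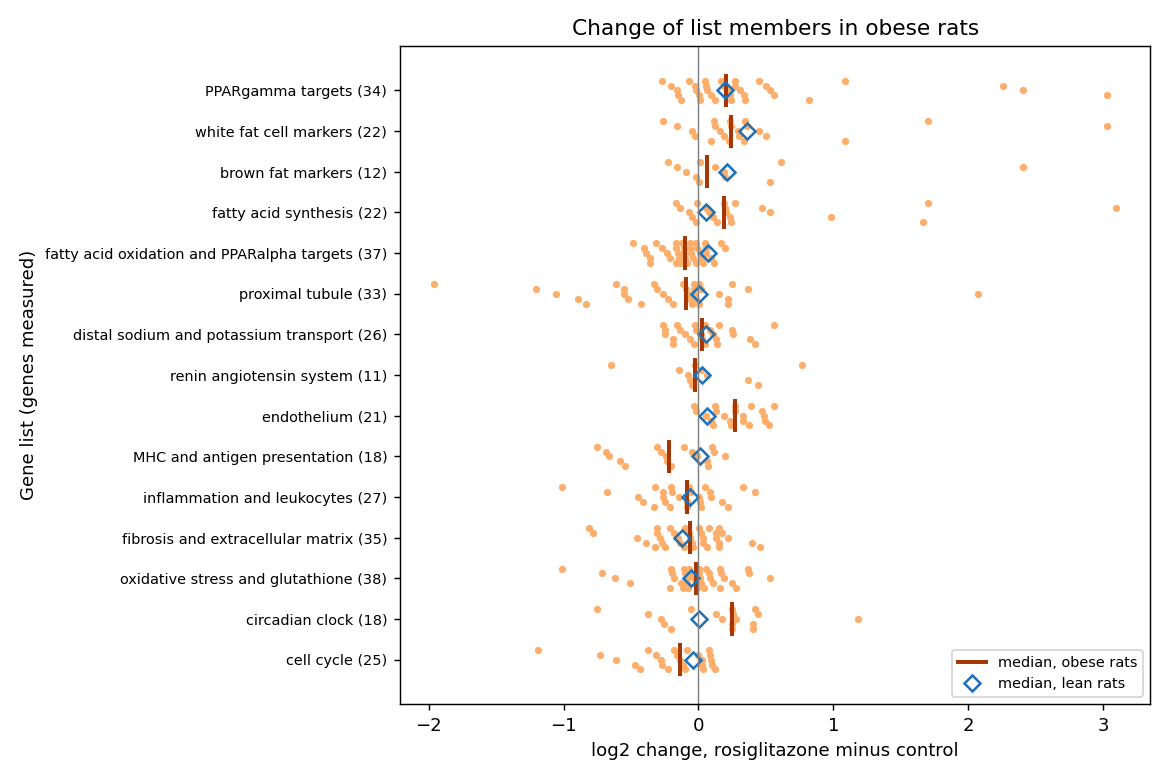
Log2 change between rosiglitazone and control in obese rats (x axis) for every measured gene of 15 gene lists (y axis, genes measured in brackets), with the median in obese rats as a bar and that in lean rats as an open diamond. PPARgamma targets and fatty acid synthesis have long right tails, and antigen presentation has a median of −0.22 in obese and 0.01 in lean rats.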

How the data were processed

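Kidney RNA of 12 rats, 3 in each of 4 groups, was measured on 1 array each. Per the labels, Trizol was used for extraction and biotin as the label. The authors deposited linear intensity values made with MAS5, per the submitters' processing notes, where no version is given. The trimmed means of the arrays lay between 500.12 and 500.15, so the arrays share 1 scaling and were not normalized again.

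Of 31099 probe sets, 57 Affymetrix controls were left out. Of the 31042 that remained, 20826 carried 1 gene symbol, 436 several and 9780 none here; the gene IDs of 20758 were found in the GRCr8 gene table, and 0 symbols were updated. Values were taken as log2(signal + 16), so changes of dim genes are understated. Only the 18625 probe sets with a mean at or above the 40th percentile, 7.32, were tested, of which 14048 carried 1 symbol for 10524 genes.

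One linear model with 4 group means was fitted to all 12 arrays (limma 3.58.1, statmod 1.5.0, R 4.3.3; 8 residual degrees of freedom; eBayes with trend and robust), and p-values were adjusted by Benjamini-Hochberg within each comparison. Calls are probe sets with an adjusted p under 0.05. The procedure was tested on simulated data. Named genes are the called ones with 1 symbol (predicted names left out), filled to 24 by smallest p, up to 4 members of smallest p from each gene list, a set of genes always looked up, and the 10 of smallest p for the difference between body types; where a gene had several probe sets, that of the highest mean is given unless said otherwise. Of the genes always looked up, Ppara, Rxra and Lcn2 lay below the filter, and some others are not reported here. Gene lists are described by counts and medians, with 1 probe set per gene. The comparison, the gene lists and the naming rule were chosen with earlier results of these data known.

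Alternatives covered the offset, the filter, the scaling, the moderation, the replicate number as a block, the spike-in class, the arrays used and each array left out. The replicate numbers of the titles were checked for pairing: deviations of same-numbered obese arrays correlated at 0.08, 0.04 and 0.06, so they were not taken as pairs.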

Additional observations from a re-analysis of the deposited data

Results flagged for a closer look

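Among the genes described, Ace and Ccn2 had every treated obese rat above the obese controls and every treated lean rat below the lean controls. Over all 18625 probe sets tested, 42 (0.226%) had this pattern and 37 (0.199%) the opposite one. For Ace, angiotensin-converting enzyme, the change in obese rats minus that in lean rats was 1.09 on the log2 scale (SE 0.18), and the test of that difference did not pass (limma, adjusted p = 0.173). For Ccn2, connective tissue growth factor, it was 0.84 (SE 0.18, adjusted p = 0.459), with lean signals of 2923, 2348 and 2658 on control diet and 2210, 1938 and 1686 on the drug.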

How the results depend on the processing

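The 13 calls in obese rats became 7 with no filter, 21 with quantile normalization (9 higher and 12 lower, against 9 and 4), 2 without trend and robust moderation, 34 with a term for the spike-in class and 31 with only the 6 obese arrays, of which 11 were among the 13; the cause was not tested. With 1 array left out the count ran from 0 to 10. Median centring gave 9 (6 higher and 3 lower), and the 60th percentile filter gave 18 (9 higher and 9 lower). With the replicate block there were 10, of which 8 were among the 13. The lower spike-in class, an alternative chosen after seeing the data, gave 18. The 1 call in lean rats became 2 with the 60th percentile filter, quantile normalization or the replicate block, 3 with median centring, 4 with the spike-in term and 2 to 4 with 1 array left out. The 0 calls for the difference became 1 with the 60th percentile filter or quantile normalization, 3 with the spike-in term, and 0 to 4 with 1 array left out, the 4 without lean control 2. Of the values of single genes, 3 changed sign, all with 1 array left out: Scnn1b, at 0.038 (range −0.072 to 0.038), and Aqp2, at −0.002 and −0.027 (range −0.027 to 0.125). No list median changed sign with another scaling; with the dimmest probe set of each gene, that of the unfolded protein response did, at −0.01 in place of 0.03, and the circadian clock median was 0.10 in place of 0.25. Across alternatives the adjusted p ran from 0.000125 to 0.0665 for Slc22a13, from 0.00106 to 0.106 for Fabp4 and from 0.0302 to 0.218 for Ace. Signal over background limits Ucp1 and Cox8b, whose obese controls lie at background, and Rbp7, whose obese controls lie at or near it.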

Other observations

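Clock genes had 12 of 18 higher means on the drug in obese rats and 0 called, with a median log2 change of 0.25, beside 0.01 in lean rats. Cry1, a repressor of the clock, had 213.2, 140.7 and 235.3 in obese controls and 493.3, 480.3 and 399.5 on the drug (log2 change 1.18, limma adjusted p = 0.611). Nr1d1, another repressor, had 1395, 1634 and 1415 against 818.5, 858.5 and 934 (log2 change −0.75, adjusted p = 0.796, and 0.0391 with only the 6 obese arrays). The sources used here do not give the time of day at which the kidneys were taken.

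Cell cycle genes had 17 of 25 lower means and 0 called, with a median of −0.13. Top2a, the topoisomerase of dividing cells, had 340.6, 342.9 and 304.9 in obese controls and 99.28, 117.6 and 209.4 on the drug (log2 change −1.19, adjusted p = 0.276), and a dimmer probe set gave −0.38 with overlapping groups. Cyp1a1, a xenobiotic-metabolising enzyme, had 310.5, 156.2 and 343.6 against 1457, 1300 and 809.7 (log2 change 2.10, SE 0.69, adjusted p = 0.697, and 0.0391 with only the 6 obese arrays), with lean controls spread over 1047, 2026 and 472.4. Oxidative phosphorylation genes had 0 of 43 called, with log2 changes from −0.21 to 0.21.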
